A study of Mus musculus with 6 samples.

Results

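Foxp1, Foxp2 and Foxp4 are related genes of the forkhead family of transcription factors, 3 of the 18194 genes to which the annotation gives a probe set of their own. On the mouse Affymetrix array used here they were read by 17 probe sets out of 45101, namely all those that the platform annotation maps to 1 of these 3 symbols, with 8 for Foxp1, 6 for Foxp2 and 3 for Foxp4. The family was chosen on the measured SOD1 minus WT difference of Foxp1, which was lower in SOD1, so its SOD1 minus WT values are given as a description and are not tested again. RNA came from motor neurons of the brainstem in 3 samples of SOD1 mice and 3 samples of wild type (WT) mice, and the RNA of both groups had gone through 2 rounds of T7-based amplification. SOD1 mice carry a change of the gene for copper-zinc superoxide dismutase. Which allele or transgene, which promoter, strain and age, how motor neurons were collected and whether animals were pooled: the sources used here give none of these. The labels do not tie the 3 samples of each genotype to different animals, and the errors below therefore cover sample-to-sample spread that may be technical.

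Foxp proteins bind DNA through the forkhead domain and act mostly as repressors. They pair with themselves and with each other through a leucine zipper, and they recruit corepressors such as the C-terminal binding proteins and the NuRD deacetylase complex. In the developing mouse spinal cord Foxp1 works with Hox proteins to set the identity of the motor neurons that reach limb muscle, Foxp2 is known for its part in vocal and motor circuits of the striatum and cerebellum, and Foxp4 is made in several of the same neural tissues and takes part, with Foxp2, in the exit of spinal progenitors into motor neurons.

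The gene Foxp1 has several starts. RefSeq (GRCm38.p6) lists 3 of them in its promoter table, all on the minus strand. The windows of 300 bases from 250 before to 50 after each start are shown because the results below turn on Foxp1. Which start a probe set reads was not tested. Each CG dinucleotide is in capitals, and there are 13 in the window at chr6:99520944-99521243, 5 in that at chr6:99266466-99266765 and 44 in that at chr6:99028249-99028548. Over 32851 such windows of all genes the median was 7, with quartiles of 3 and 20.
Foxp1 window 1: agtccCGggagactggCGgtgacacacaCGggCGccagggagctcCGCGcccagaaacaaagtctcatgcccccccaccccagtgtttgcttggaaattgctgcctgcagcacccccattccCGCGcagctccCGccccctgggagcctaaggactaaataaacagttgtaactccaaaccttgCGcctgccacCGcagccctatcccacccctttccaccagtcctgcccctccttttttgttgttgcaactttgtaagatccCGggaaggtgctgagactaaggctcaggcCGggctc
Foxp1 window 2: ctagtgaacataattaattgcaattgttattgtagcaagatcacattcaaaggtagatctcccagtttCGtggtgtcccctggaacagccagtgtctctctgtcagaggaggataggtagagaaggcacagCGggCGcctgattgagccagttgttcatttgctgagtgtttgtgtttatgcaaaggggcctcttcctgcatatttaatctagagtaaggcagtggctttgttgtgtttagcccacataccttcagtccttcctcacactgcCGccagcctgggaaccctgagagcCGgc
Foxp1 window 3: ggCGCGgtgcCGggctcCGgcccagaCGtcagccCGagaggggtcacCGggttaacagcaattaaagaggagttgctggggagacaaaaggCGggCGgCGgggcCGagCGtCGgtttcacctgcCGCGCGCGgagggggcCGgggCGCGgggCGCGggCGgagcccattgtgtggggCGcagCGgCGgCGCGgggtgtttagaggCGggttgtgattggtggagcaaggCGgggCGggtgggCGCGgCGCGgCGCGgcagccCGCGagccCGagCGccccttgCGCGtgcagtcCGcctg

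The median signal of an array lay between 267.4 and 300.3 in SOD1 and between 301 and 315 in WT. Levels below are log2 of the quantile normalised signal plus 16, and a background level was set per array at the 95th percentile of 27 unspiked controls of bacterial sequence. It lay between 7.21 and 7.61 in SOD1 and between 7.23 and 7.35 in WT. The Sod1 probe set with the highest signal read 16.79, 16.69 and 16.84 in SOD1, against 16.33, 16.51 and 16.68 in WT, and a mouse probe set need not read a transgene. SOD1 replicates 1 and 2 had Xist levels of 12.83 and 12.91, SOD1 replicate 3 had 5.71, and WT lay between 5.76 and 7.07. Sex is not given in the labels used here, but by Xist the samples were not alike. High Xist was found on SOD1 replicates 1 and 2 and on no WT array, so it is partly confounded with genotype. The mean over the 10 of 12 motor neuron markers tested was high, between 14.26 and 14.51 in SOD1 and between 14.51 and 14.66 in WT. The genes were not alike, from the neurofilament gene Nefl at 17.40 in SOD1 and 17.39 in WT down to Chat at 9.04 and 9.43. Slc5a7 was also low among them, at 10.23 and 9.51.

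Foxp1 was lower in SOD1 by most of its probe sets. On 5 of its 8 probe sets every SOD1 array lay below every WT array, on 3 the groups overlapped, and on 0 did SOD1 lie above WT. In the fit across all 27022 probe sets above the filter on low signal, 1 of the 7 Foxp1 probe sets kept was called lower (limma, adjusted p under 0.05), which is the call the choice of the family rests on, beside 0.122% called lower among all probe sets tested. For the groups standing apart, every SOD1 array was below every WT array on 5 of the 7 kept Foxp1 probe sets, beside 9.81% of all kept ones and 7.89% of the 45037 that are not controls. Both counts come from the contrast that chose the family, and nothing is read from them. The estimates ran from -2.41 to 0.02, and the plot of all 17 probe sets shows each array.

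**Figure D1:**
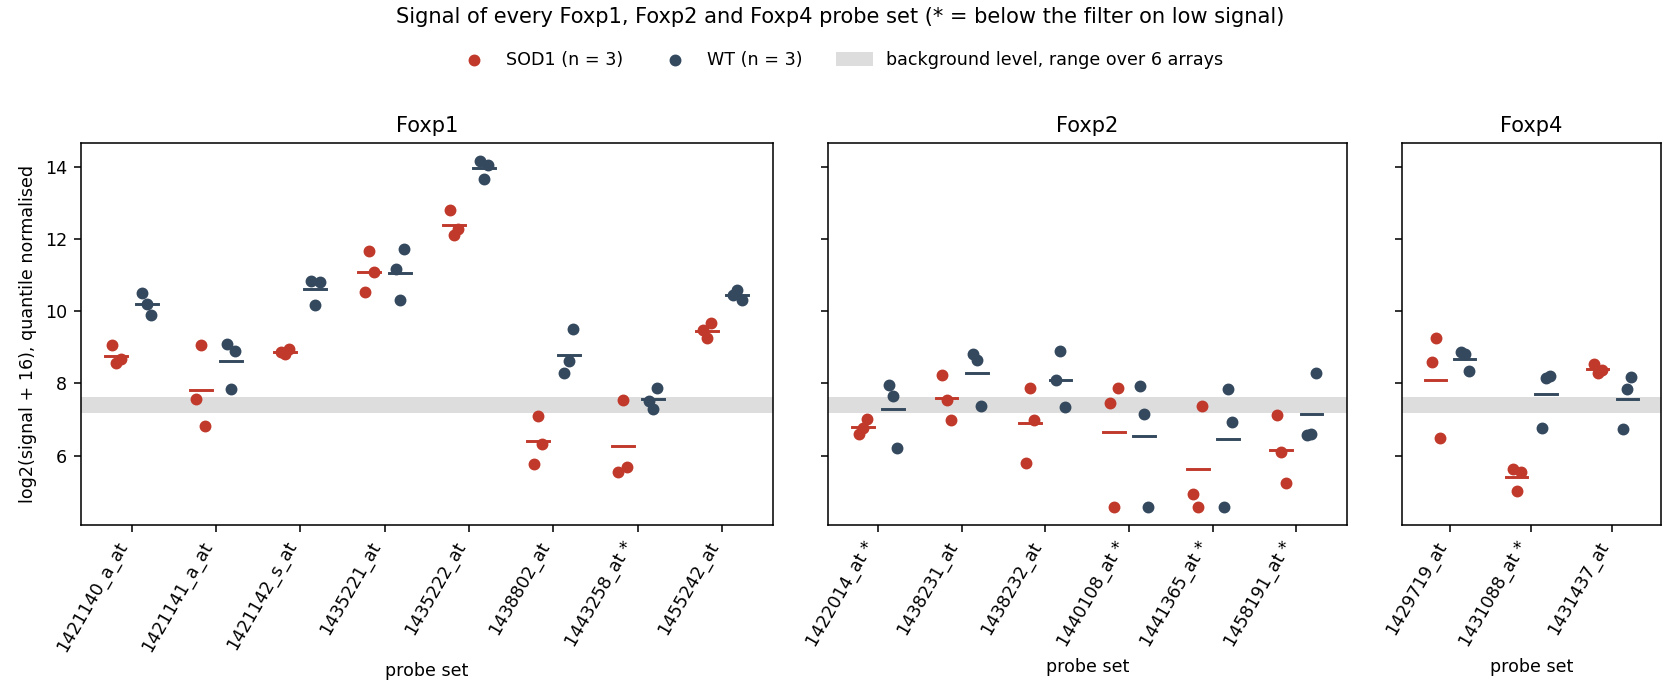
Level of every Foxp probe set, as log2(signal + 16) after quantile normalisation, with 1 point per array (SOD1 left, WT right, 3 each), group means as lines and the range of the background level over the 6 arrays in grey. SOD1 lies below WT with no overlap on 5 of the 8 Foxp1 probe sets, and every Foxp2 probe set has points at or below the background band.

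The Foxp1 probe set 1435222_at carried the call. Its deposited signal was 7166, 4320 and 4784 in SOD1, against 18242, 12937 and 16753 in WT. On the log2 scale it read 12.81, 12.10 and 12.28 in SOD1, against 14.17, 13.66 and 14.04 in WT. The lowest WT array was thus above the highest SOD1 array, by more than the spread within either group. The group means were 12.40 ± 0.37 in SOD1 and 13.96 ± 0.27 in WT (SD, n = 3 each), a difference of -1.56 ± 0.24 (SE), or 2.95-fold lower in SOD1. SOD1 replicate 3, whose Xist level was not high as in the other SOD1 arrays, also read below every WT array. High Xist was found in SOD1 arrays only, and 1 array cannot separate it from genotype. With Xist as a covariate the call was lost, as given below. The part of sex in this difference was not tested.

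A second design of the array, the 3 probe sets built on GenBank entry BG962849, gave a similar picture on 2 of its probe sets. Foxp1 1421142_s_at read 8.88, 8.80 and 8.97 in SOD1, against 10.83, 10.18 and 10.80 in WT, a difference of -1.72 ± 0.35 (SE). It was not called (limma, adjusted p = 0.0883), and it was called in 0 of 17 alternatives (adjusted p between 0.0567 and 0.299). Foxp1 1421140_a_at read 9.07, 8.56 and 8.67 in SOD1, against 10.50, 10.19 and 9.89 in WT, a difference of -1.43 ± 0.37. On both, the SOD1 arrays lay together below all WT arrays. The remaining one, 1421141_a_at, read 7.56, 9.05 and 6.83 in SOD1, against 9.10, 7.84 and 8.90 in WT, and the groups overlapped, with SOD1 replicate 2 near the highest WT array (-0.80 ± 0.65). In Affymetrix names the ending _a_at marks a probe set that reads several transcripts of a gene and _s_at one whose probes are shared between transcripts, which may belong to different genes.

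Probe sets built on the same GenBank entry did not move alike. The entry BM220880 underlies 1435222_at and also 1435221_at and 1455242_at, so these 3 share their source and are not independent readings. Foxp1 1455242_at read 9.47, 9.25 and 9.66 in SOD1, against 10.46, 10.59 and 10.30 in WT, a smaller difference of -0.99 ± 0.32 with no overlap. Foxp1 1435221_at read 10.52, 11.66 and 11.07 in SOD1, against 11.16, 10.32 and 11.72 in WT, so the groups overlapped fully, at 0.02 ± 0.41 with a 95% interval from -0.87 to 0.91. That interval does not reach the estimate of any of the 5 probe sets without overlap. The gap between 1435222_at and 1435221_at within an array was 2.29, 0.45 and 1.204 in SOD1, against 3.01, 3.34 and 2.32 in WT (1.31 ± 0.93 and 2.89 ± 0.52, SD, n = 3 each). For 1435222_at and 1455242_at the gap was 2.94 ± 0.37 in SOD1 and 3.51 ± 0.38 in WT, and here the arrays of the groups overlapped.

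On the last 2 Foxp1 probe sets all 3 SOD1 arrays were below background. On 1438802_at the levels were 5.77, 7.10 and 6.32 in SOD1, all below background, against 8.28, 8.62 and 9.50 in WT, all above it. SOD1 has only a bound there. With each SOD1 array taken at its background level, the SOD1 mean was 2.69-fold below the WT mean on this probe set. That value carries no error for the spread of the WT arrays, so it is not a firm minimum. The fit on the levels as read gave -2.41 ± 0.64 (SE), with an interval from -3.82 to -0.99. This probe set was not called (limma, adjusted p = 0.143). On 1443258_at, which the filter left out, SOD1 read 5.56, 7.54 and 5.68 and WT 7.51, 7.29 and 7.88, with 0 of 3 SOD1 arrays and 2 of 3 WT arrays above background. The 5 Foxp1 probe sets above background on all 6 arrays were 1421140_a_at, 1421142_s_at, 1435221_at, 1435222_at and 1455242_at. Of these, 4 had every SOD1 array below every WT array, beside 9.81% of all kept probe sets. They were built on the entries BG962849 and BM220880 only, so they are not 4 independent readings. The count comes from the contrast that chose the family, and nothing is read from it.

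**Figure D2:**
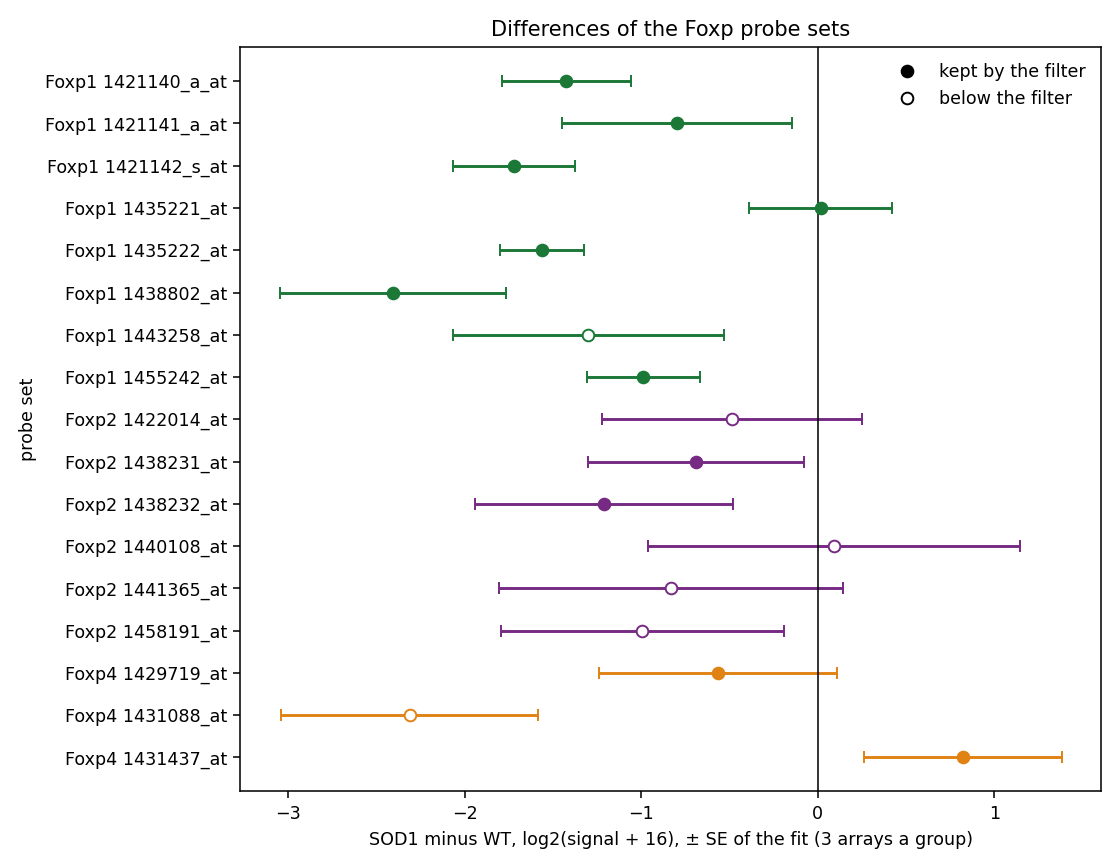
SOD1 minus WT difference of each of the 17 probe sets on the log2(signal + 16) scale, with the SE of the fit across all probe sets, for 3 arrays a group. Open points are probe sets below the filter, whose values come from a fit with no filter. Foxp1 runs from -2.41 to 0.02, Foxp2 from -1.21 to 0.09 and Foxp4 from -2.31 to 0.82.

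Foxp2 signal was low on all of its probe sets. None of the 6 was above background on all 6 arrays, 2 were kept by the filter, and the groups overlapped on each of the 6. The probe set 1438231_at read 8.23, 7.55 and 6.98 in SOD1, against 8.82, 8.63 and 7.37 in WT, with 1 of 3 SOD1 arrays and 3 of 3 WT arrays above background. Its difference was -0.69 ± 0.61 (SE), with a 95% interval from -2.04 to 0.66. The other kept one, 1438232_at, built on the same GenBank entry AV322952, read 5.80, 7.88 and 6.999 in SOD1, against 8.08, 8.89 and 7.34 in WT, a difference of -1.21 ± 0.73. The intervals of both hold 0 and also the -1.56 of Foxp1 on 1435222_at.

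The 4 Foxp2 probe sets below the filter overlapped between the groups. Probe set 1440108_at had deposited signals of 163.5, 9.07 and 195.4 in SOD1, against 241.2, 129.6 and 7.37 in WT, so 1 array of each group was far below the others. Probe set 1441365_at was likewise split, at 15.2, 8.77 and 132.1 in SOD1 and 8.12, 222.0 and 103.1 in WT. On 1422014_at and 1458191_at all SOD1 arrays were below background, at 6.61, 6.77 and 7.01 and at 7.13, 6.09 and 5.25 on the log2 scale. In WT these read 7.97, 7.66 and 6.203 on 1422014_at and 6.57, 6.60 and 8.27 on 1458191_at, so WT overlapped background too and no fold is given.

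Foxp4 had probe sets that differed in opposite directions. Probe set 1431437_at read 8.55, 8.29 and 8.37 in SOD1, against 6.74, 7.83 and 8.16 in WT, and every SOD1 array was above every WT array, as on 8.58% of all probe sets that are not controls. Its difference was 0.82 ± 0.56 (SE), with a 95% interval from -0.41 to 2.05, and WT varied more (SD 0.74) than SOD1 (SD 0.13). Probe set 1431088_at, below the filter, read 5.63, 5.01 and 5.55 in SOD1, all below background, against 6.76, 8.16 and 8.21 in WT, 2 of them above it. With 1 WT array below background too, no fold is given. On the remaining one, 1429719_at, the levels were 8.58, 9.25 and 6.49 in SOD1, against 8.86, 8.81 and 8.35 in WT (-0.56 ± 0.67), and SOD1 replicate 3 alone stood low. Without SOD1 replicate 3 the difference of 1429719_at was 0.24, so its sign rests on that array.

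Over the family, 1 of the 11 probe sets kept was called and 0 were called higher, where 0.0629% of all probe sets tested were called higher. Foxp3, the remaining member of the subfamily and a factor of regulatory T cells, was read by 1 probe set below the filter, at 7.54, 7.09 and 7.30 in SOD1 and 7.25, 7.37 and 5.19 in WT, with 2 arrays of each group above background. Forkhead genes outside the subfamily gave no call. Of 37 listed, 18 were tested, 0 passed in either direction by limma over all genes, and 0 had an unadjusted p under 0.05, beside 8.89% lower and 7.65% higher at that level over all 13123 genes tested. Their median difference was -0.02, beside -0.01 over all genes, with 10 negative and 8 positive, and it was above 0 in 2 of 18 alternatives. Foxc1, a factor of vascular and mesenchymal development, was at -1.01 ± 0.58, Foxj2 at -0.41 ± 0.29 and Foxj3 at -0.24 ± 0.15, none of them past the threshold (limma, adjusted p = 0.45, 0.551 and 0.466). Another Foxj3 probe set was at 1.51 ± 0.68.

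Corepressors and protein partners of Foxp factors gave 0 calls among the 24 of 28 genes tested (limma), with 2 lower and 1 higher at an unadjusted p under 0.05. Over all genes 0.152% were called lower and 0.122% higher, and 8.89% and 7.65% passed the unadjusted level. The median of the list was -0.26, with 15 negative and 9 positive. Hdac2, a histone deacetylase, read 14.84 ± 0.06 in SOD1 and 14.38 ± 0.30 in WT (0.47 ± 0.17, adjusted p = 0.238, limma). Its other probe sets were at 0.55 ± 0.29 and -0.58 ± 0.56. Sin3a, the scaffold of a deacetylase complex, was at -0.86 ± 0.35 (adjusted p = 0.287), with its other probe sets at -0.75 ± 0.44 and 0.96 ± 0.48. Gatad2a, a subunit of NuRD, was at -0.60 ± 0.25 (adjusted p = 0.307), with its other probe sets between -1.12 and -0.13.

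Genes reported as targets of Foxp1 or Foxp2, in mouse or in human cells, differed in both directions and 0 of the 9 tested of 15 were called (limma), with 1 lower and 1 higher at an unadjusted p under 0.05 (8.89% and 7.65% over all genes). Their median of -0.05 was above 0 in 5 of 18 alternatives. Aldh1a2, a retinoic acid synthesis enzyme made in limb-innervating motor neurons of mouse where it depends on Foxp1, read 6.996, 6.93 and 9.20 in SOD1, against 11.08, 10.17 and 9.33 in WT. The groups did not overlap, and SOD1 replicate 3 lay just below the lowest WT array (-2.49 ± 0.66, adjusted p = 0.143). The samples here are of brainstem, and all 12 endothelial and mural genes tested were negative as well. Which cells gave the Aldh1a2 signal was not tested. Csf1r, the receptor of colony stimulating factor 1, which FOXP1 represses in human monocytic cells, read 15.28, 14.85 and 14.55 in SOD1, against 14.15, 13.57 and 11.67 in WT (1.76 ± 0.49, adjusted p = 0.151). Csf1r is also a marker of microglia, a list on which all 15 genes tested were positive. Mef2c, a factor of synapse development that Foxp2 represses in mouse striatum, was at 0.77 ± 0.42 (adjusted p = 0.429), with 4 other probe sets between -0.29 and 0.74. Cntnap2, a neurexin-family adhesion gene, was at -0.05 ± 0.18 and the N-cadherin gene Cdh2 at 0.05 ± 0.17.

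Motor neuron identity factors, among which Foxp1 acts in the spinal cord, gave 0 calls among 21 of 27 genes tested (limma), with 2 lower and 0 higher at an unadjusted p under 0.05, beside 8.89% and 7.65% over all genes. Their median was -0.09, and it was above 0 in 2 of 18 alternatives, up to 0.05. Tbx2, a T-box repressor, read 9.16 ± 0.35 in SOD1 and 10.37 ± 0.43 in WT (SD, n = 3 each), a difference of -1.21 ± 0.37 (SE, limma adjusted p = 0.18). Meis2, a Hox cofactor, was at -0.68 ± 0.22 (adjusted p = 0.199), and its other probe sets were between -1.24 and 0.14. Tbx3 was at -0.93 ± 0.44 (adjusted p = 0.355), and at -1.74 on another probe set. The cranial motor neuron factor Tbx20 was at 0.51 ± 0.28 and Isl1, a LIM factor of all motor neurons, at 0.23 ± 0.13. The LIM factors Lhx4 and Lhx3 went the other way, at -0.59 ± 0.28 and -1.20 ± 0.61. Of the 21 identity factors tested, 12 were negative and 9 positive. Hox genes, the spinal partners of Foxp1, were mostly below the filter. Of 23 listed, 5 were tested and 0 called (limma), with 0 at an unadjusted p under 0.05. The median was -0.79, against -0.32 with no filter and -0.27 with the mean of each gene's probe sets. Hoxb3 was at -0.79 ± 0.40 and at 0.24 ± 0.91 on another probe set, Hoxb2 was at -0.81 ± 0.46, and Hoxa3 was at 0.88 ± 0.55, with its other probe sets at -0.78 and 0.45.

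**Figure D3:**
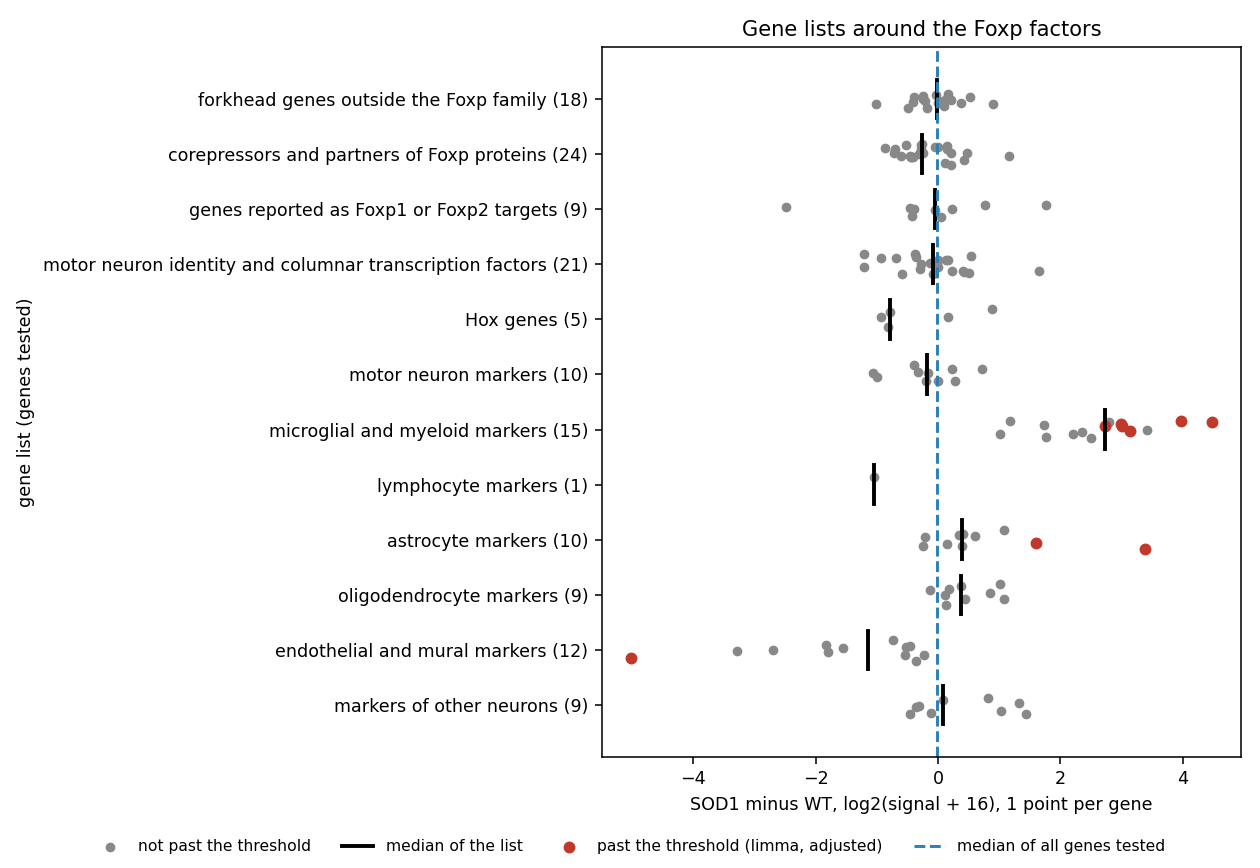
SOD1 minus WT difference of each gene of the lists, on its probe set of highest mean, with 1 point per gene. The black line is the median of the list, the dashed line that of all genes tested (-0.01), and red points passed the threshold (limma, adjusted p under 0.05). The 5 lists around the Foxp factors have no red point, while microglial, astrocyte and endothelial and mural markers have 6, 2 and 1.

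Markers of other cells differed between the groups alongside Foxp1. In bulk samples such as these, fewer cells of a type and less RNA per cell cannot be told apart. Of 12 endothelial and mural genes tested of 13 listed, 12 were negative, with a median of -1.14, and 1 fell, the smooth muscle actin Acta2 (-5.02 ± 0.77, limma, adjusted p = 0.0327). Their mean level ranged from 8.56 to 9.75 in SOD1 and from 10.44 to 11.20 in WT. Of 15 microglial and myeloid genes tested of 17 listed, 15 were positive and 6 rose (limma). These were Tyrobp, a myeloid signalling adaptor (4.48 ± 0.58, adjusted p = 0.0268), Ly86 (3.98 ± 0.63), the Fc receptor Fcgr3 (3.13 ± 0.48), the complement gene C1qa (3.00 ± 0.37, adjusted p = 0.0222), Ptprc, which encodes CD45 (2.98 ± 0.46), and the protease cathepsin S gene Ctss (2.73 ± 0.35). Their mean level ranged from 11.85 to 12.69 in SOD1 and from 8.46 to 10.16 in WT. Without SOD1 replicate 2 or WT replicate 2, 0 of the microglial genes passed, and 0 of the endothelial and mural genes passed without SOD1 replicate 2, SOD1 replicate 3, WT replicate 1 or WT replicate 2 (limma). The microglial count was 1 without SOD1 replicate 1 and 3 without WT replicate 1, while the endothelial and mural count was 3 without WT replicate 3. That count was also 0 with robust moderation and with no variance trend, 2 with Xist as a covariate (median -1.72), and 3 with array weights and with a 60th percentile filter (median -1.80). The part of these cells in the Foxp1 values was not tested.

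Of the astrocyte genes, 2 of 10 rose, the filament gene Gfap (3.38 ± 0.47) and the water channel gene Aqp4 (1.61 ± 0.22), each at an adjusted p of 0.0317 (limma), with a list mean of 13.17 to 13.47 in SOD1 and 12.37 to 12.86 in WT. The other Gfap probe sets were at 2.59 ± 0.62 and 3.28 ± 0.93, not called (limma, adjusted p = 0.119 and 0.157). The other Aqp4 probe sets were at 1.67 ± 0.34 and 0.44 ± 0.67, also not called (adjusted p = 0.0883 and 0.803). Without SOD1 replicate 1, SOD1 replicate 2 or WT replicate 2, 0 of the astrocyte genes passed, and 1 passed without WT replicate 1. With no variance trend 0 passed. Over 18 alternatives the astrocyte count held in 11 and moved in 7. Oligodendrocyte genes gave 0 calls of 9 by limma, with 5 higher at an unadjusted p under 0.05 (7.65% over all genes), and a list mean of 13.51 to 13.59 in SOD1 and 12.71 to 13.29 in WT. Among lymphocyte markers, cells in which Foxp1 is well known, only Cd8a of 12 was tested, at 6.13, 7.85 and 7.92 in SOD1 and 8.53, 8.67 and 7.82 in WT. Markers of other neurons gave 0 calls of 9 (limma, 1 higher at an unadjusted p under 0.05, beside 7.65% over all genes), with a list mean of 8.43 to 9.72 in SOD1 and 7.84 to 8.89 in WT. The motor neuron markers gave 0 calls of 10 (limma, 3 lower and 1 higher at an unadjusted p under 0.05, beside 8.89% and 7.65% over all genes). Their median was -0.18, against -0.03 on the values as deposited and 0.08 with median centring. Of the 10 motor neuron markers, 6 were negative and 4 positive. Among the negative ones, the acetylcholinesterase gene Ache was at -1.06 ± 0.25 (limma, adjusted p = 0.117) and Slc18a3, the vesicular acetylcholine transporter, at -0.996 ± 0.249 (adjusted p = 0.131). The neurofilament gene Nefm was at -0.33 ± 0.10 (adjusted p = 0.171) and Chat at -0.40 ± 0.43. The positive ones were Slc5a7 (0.72 ± 0.44), Calcb (0.27 ± 0.12), Isl1 (0.23 ± 0.13) and Nefl (0.007 ± 0.067). Calcb was the 1 higher at an unadjusted p under 0.05.

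The genes whose pattern over the 6 arrays was most like Foxp1 on 1435222_at were also lower in SOD1, as that measure of likeness makes them. Likeness was the mean absolute difference between the 6 levels, each gene centred on its own mean. Kalrn, known for its part in dendritic spines, was nearest at 0.142 (Pearson r 0.974), followed by Ppargc1b, a coactivator of mitochondrial genes, at 0.152 (r 0.981), and Cbfa2t2, a corepressor, at 0.154 (r 0.967). Cit, which encodes citron kinase, was at 0.17 (r 0.978) and Tecpr1, of autophagosome fusion, at 0.175 (r 0.959). These values describe 6 arrays, and the group difference of Foxp1 enters each of them. For Foxp2 on 1438231_at the nearest genes were Pofut2 (0.117), Cnnm1 (0.12), Dab2ip (0.131), Myh7 (0.151) and Mtrr (0.155). For Foxp4 on 1429719_at they were Ccdc180 (0.0906), Rad51d (0.126), Gm5113 (0.134), Noc2l (0.144) and Mef2b (0.147), which all stood low on SOD1 replicate 3.

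**Figure D4:**
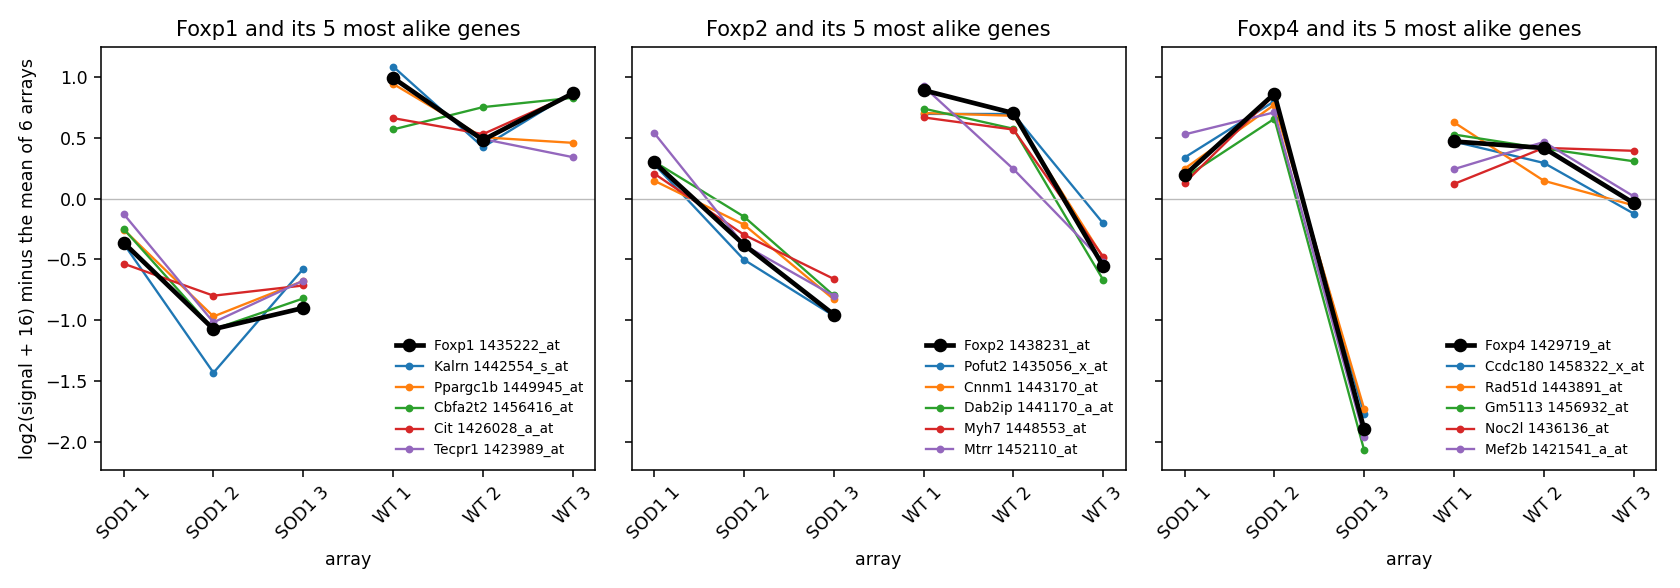
Level on each array minus the gene's own mean over the 6 arrays, on the log2(signal + 16) scale, for the Foxp1, Foxp2 and Foxp4 probe set used (black) and the 5 genes most like each. Foxp1 and its 5 genes lie below 0 on all 3 SOD1 arrays and above 0 on all 3 WT arrays, while Foxp4 and its genes share 1 low array, SOD1 replicate 3.

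On the Foxp1 probe set 1435222_at the size of the difference held across the ways of processing, and the call did not. Over 17 alternatives the difference of 1435222_at lay between -1.76 and -1.41, and it passed the threshold in 10 of them. The call was lost when any 1 array other than SOD1 replicate 1 was left out (limma, adjusted p between 0.0604 and 0.147), with no variance trend (0.314) and with Xist as a covariate (0.0776). The mean of the kept Foxp1 probe sets differed by -1.27 and was not called (limma, adjusted p = 0.112). The other 4 Foxp1 probe sets without overlap were negative in all 17, whereas 1435221_at was positive in 14 and negative in 3.

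**Figure D5:**
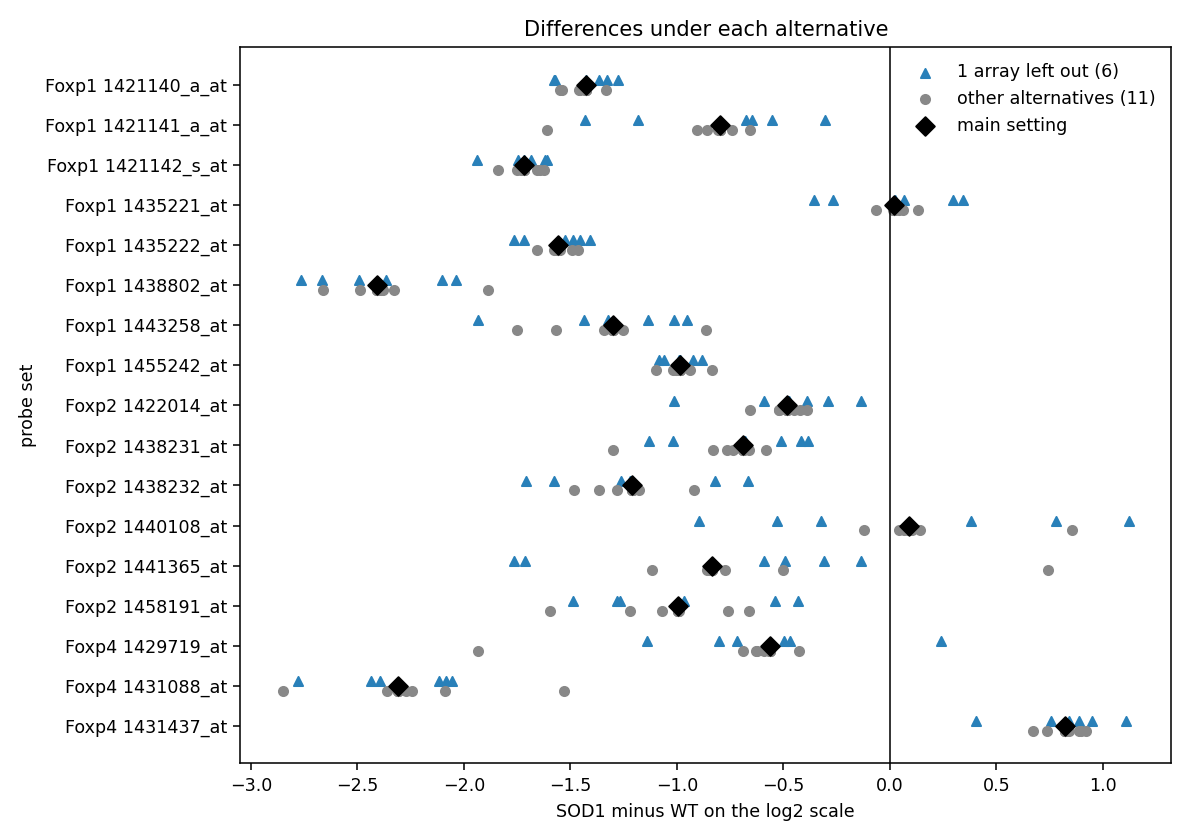
SOD1 minus WT difference of each probe set in the main setting (diamond), with 1 array left out (6 triangles) and under 11 other alternatives (circles), on the log2 scale. Foxp1 is negative in all settings on 7 of its 8 probe sets, and 1435221_at lies on both sides of 0.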

How the data were processed

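Brainstem motor neuron RNA of 3 SOD1 and 3 WT samples was hybridised to mouse Affymetrix arrays after 2 rounds of amplification, per the labels. The authors deposited intensity values on a linear scale, a single signal for each probe set on each array. How they were summarised and scaled is not given in the sources used here. With 3 arrays a group, precision is set by that number.

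Of 45101 probe sets, 64 were controls. Of the others, 34945 had 1 symbol, 932 several and 9160 were not listed, and 0 with several symbols named a member. Quantile normalisation came first, then log2 of the signal plus 16, which understates differences at low signal. A filter at the 40th percentile of the mean level (7.38) left 27022 probe sets. The SOD1 minus WT contrast was fitted in limma (version 3.58.1, R 4.3.3; eBayes with a variance trend, two-sided, Benjamini-Hochberg, threshold 0.05). No array duplicated another, and correlations between arrays were 0.918 to 0.957 within and 0.901 to 0.937 between groups.

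List genes were each read by their brightest probe set. The genes named are every Foxp probe set, the genes of each list past the threshold or else up to 3 with the smallest p, and 5 pattern neighbours per gene. Foxp3, Sod1, Cntnap2, Cdh2, Tbx20, Isl1, Lhx3, Lhx4, Chat, Slc5a7, Calcb, Nefl and the Csf1r overlap were named outside that rule, after values were seen. The background level was also chosen after values were seen. The members, lists and tests were chosen with earlier results of these data known. The limma step was tested on simulated data. Alternatives were other scalings, pseudocounts of 1 and 64, no filter or a 60th percentile filter, no variance trend, robust moderation, array weights, a replicate block, Xist as a covariate, each array left out, and averaging the probe sets of each gene. Figures were drawn with matplotlib 3.10.9.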

Additional observations from a re-analysis of the deposited data

How the results depend on the processing

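The main setting called 17 probe sets higher and 33 lower, and median centring 19 and 22. The counts were 32 and 55 with a pseudocount of 64, 35 and 71 with a 60th percentile filter, 32 and 68 with array weights and, with no variance trend, 0 and 0 (limma, with 1580 higher and 1667 lower at an unadjusted p under 0.05). Leaving out 1 array gave 0 to 26 higher and 0 to 53 lower, with 0 and 0 without WT replicate 2 (limma, with 1369 and 1290 at an unadjusted p under 0.05), 0 and 6 without SOD1 replicate 2, 6 and 3 without WT replicate 1, 2 and 33 without SOD1 replicate 1, 11 and 18 without SOD1 replicate 3 and 26 and 53 without WT replicate 3. Foxp1 on 1435222_at was -1.56 and no longer called with no variance trend, -1.66 with Xist as a covariate, and between -1.76 and -1.41 with 1 array left out. The mean of the kept Foxp1 probe sets was -1.27 and not called (limma, adjusted p = 0.112). Foxp4 on 1429719_at was -1.93 with Xist as a covariate, and the mean of the kept Foxp4 probe sets was 0.13. Of the microglial genes 0 passed with no variance trend, with Xist as a covariate, or without SOD1 replicate 2 or WT replicate 2 (limma). The labels do not say whether the replicate numbers pair the samples. Correlations of same-numbered deviations were 0.03, -0.04 and -0.01, which with 3 arrays a group cannot exclude pairing. The replicate block gave 36 higher and 40 lower, called 1 gene of the Foxp target list and left Foxp1 on 1435222_at called (-1.56). Low signal limits the Foxp2 and Foxp4 values, and the cause of each lost call was not tested.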
